A study of Mus musculus with 60 samples.

Results

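The response of the mouse embryonic stem cell line R1 to 6 h of 1 mM paracetamol was measured against the solvent, on 3 paracetamol arrays and 3 DMSO arrays of the 60 arrays in the series. The arrays were taken by their treatment label. The data describe a single, established line; its cells were expanded on feeder cells, separated from the feeders and exposed while attached and undifferentiated. The paracetamol cells received 1 mM paracetamol, which the labels class as a non-teratogen, in medium that also held 0.1% DMSO. The DMSO cells received 0.1% DMSO alone, so the solvent is common to both groups. Each compound of the series was given at the lowest of the concentration that lowers viability by a fixed small share, 1 mM and its limit of solubility, and paracetamol was given at the cap of 1 mM. Total RNA was labelled as biotinylated cDNA and hybridised to Affymetrix mouse gene arrays. The labels call the 3 arrays of a group triplicates without saying that they came from separate cultures. The p-values and SEs rest on the spread between arrays within a group, pooled over the 20 groups of the series. That spread may be technical.

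Paracetamol is an analgesic that lowers prostaglandin synthesis through the cyclooxygenases. Liver cells conjugate it with sulfate or glucuronic acid, and cytochrome P450 enzymes oxidise a part of it to a reactive quinone imine that glutathione neutralises. Several gene groups described here mark the cell cycle: the replication-dependent histone genes are transcribed in S phase and their mRNAs end in a stem-loop in place of a poly(A) tail, the mitotic genes peak in G2 and M phase, and p53 activates a set of genes after DNA damage and other stress. Undifferentiated mouse embryonic stem cells cycle fast, with a short G1 phase, and keep a network of pluripotency transcription factors active.

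All values are log2 signals of a probe set, and levels of different probe sets are not set against each other. The median log2 signal was 7.63, 7.67 and 7.64 on the paracetamol arrays, against 7.64, 7.67 and 7.63 on the DMSO arrays. The root mean square difference between 2 arrays was 0.119 to 0.133 within paracetamol, 0.128 to 0.182 within DMSO and 0.156 to 0.206 between the groups, so the arrays of each group lay closer together on median (0.125 within paracetamol, 0.145 within DMSO) than across the groups (0.174). The stem cell markers Pou5f1, Sox2, Nanog, Zfp42, Esrrb, Klf4, Dppa5a and Tdgf1 were bright on all 6 arrays, with log2 signals from 10.03 for Klf4 on paracetamol replicate 3 up to 13.59 for Dppa5a on DMSO replicate 2. Of 19 measured genes that mark feeder fibroblasts, none was called, and their summed linear signal was 15210 to 15674 with paracetamol and 15063 to 15508 with DMSO. The mean signals of the feeder genes with paracetamol ran from 4.51 for Lum to 12.79 for Acta2, and such a sum is weighted to the brightest genes. Col1a2, a collagen chain, had 9.46, 9.54 and 9.46 with paracetamol, against 9.56, 9.67 and 9.62 with DMSO (log2 fold change -0.13 ± 0.06 SE, limma adjusted p = 0.175). Acta2 differed in the other direction (0.10 ± 0.04, adjusted p = 0.173). In bulk RNA such as this, fewer cells of a type and less RNA per cell cannot be told apart.

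Paracetamol changed many transcripts by small amounts. Of 21789 probe sets with a single gene symbol, 1909 were called at an adjusted p under 0.05 (8.76%), 1004 of them higher (4.61%) and 905 lower (4.15%), in a limma fit over all 60 arrays with Benjamini-Hochberg adjustment. The median size of a called log2 fold change was 0.274, and the median log2 fold change of all probe sets was 0.008. By 1.5-fold or more, 15 called probe sets were higher and 19 lower; by 2-fold or more, 0 were higher and 3 were lower, all 3 of them histone genes (H2ac1, H2ac4 and H2bc3). In 995 of the 1004 higher and 881 of the 905 lower calls, the 3 paracetamol arrays and the 3 DMSO arrays did not overlap; 26.5% of all probe sets tested showed such a separation. Without paracetamol replicate 2 the count was 1166 (621 higher, 545 lower), and without DMSO replicate 3 the lower calls numbered 550.

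**Figure D1:**
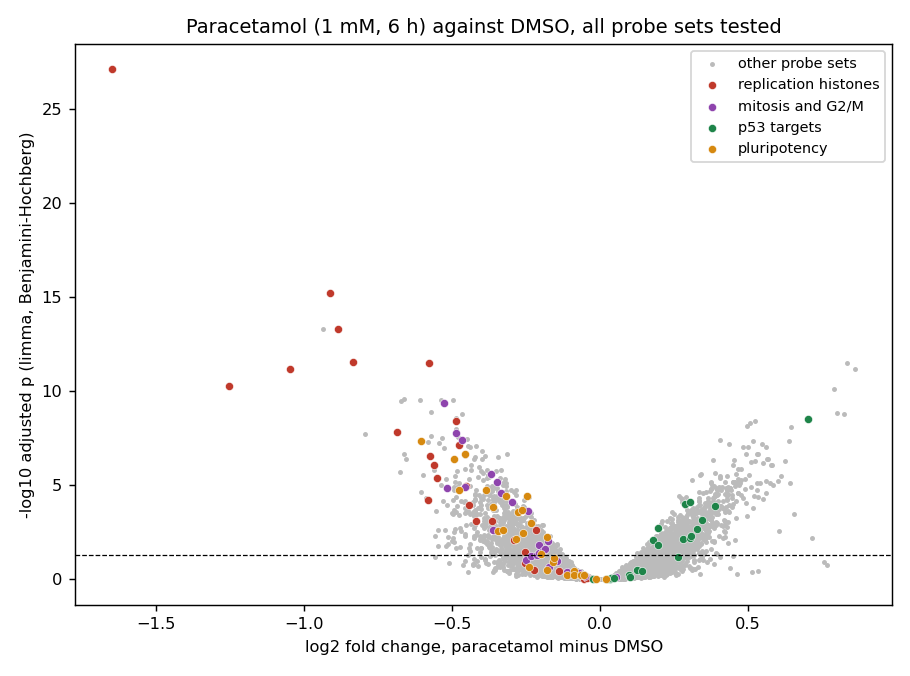
Log2 fold change, paracetamol minus DMSO, on the x axis against −log10 of the limma adjusted p on the y axis, 1 point per probe set of the 21789 tested; the dashed line marks an adjusted p of 0.05. The replication histones (red) reach furthest to the left, down to -1.65 for H2ac1, and the p53 targets (green) lie mainly to the right, up to 0.70 for Btg2.

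The replication-dependent histone genes fell with paracetamol. Of 26 measured genes, 21 were called lower and 0 higher, with a median log2 fold change of -0.48; among all 19938 genes, each read by its brightest probe set, 8.98% were called, 4.03% lower and 4.95% higher, with a median of 0.012. The calls covered 4 of 4 linker histone (H1) genes, 4 of 4 H2A genes, 7 of 9 H2B genes and 6 of 6 H4 genes, but 0 of 3 H3 genes. Of the 21, 19 kept their call whichever of the 6 arrays was left out, and the 2 that did not were H4c9 (adjusted p = 0.071 without DMSO replicate 3) and H2bc22 (adjusted p = 0.168 without paracetamol replicate 3). H4c9 was called in 5 of these 6 fits and H2bc22 in 1.

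The promoters of the histone genes H2ac1, H2ac4, H2bc3 and H1f5 are shown here, and those of 2 mitotic kinases further down. The motif shares given with them cover every list member with a window, called or not. Any link between the motifs and the change with paracetamol was not tested. RefSeq promoter windows (250 bases before to 50 bases after the start, GRCm38.p6) were available for 22 of the 26 histone genes and 21 of the 25 mitotic genes described further down. In the 4 histone windows, capitals mark CCAAT (bound by NF-Y), TATAAA (the TATA box) and ATTTGCAT (the octamer known from H2B promoters), searched on both strands; a run of capitals that spells none of these is the reverse complement of a motif. The windows are H2ac1 at chr13:23934187-23934486 (plus strand), H2ac4 at chr13:23750838-23751137 (plus strand), H2bc3 at chr13:23746484-23746783 (plus strand) and H1f5 at chr13:21780576-21780875 (minus strand), all written 5′ to 3′.
H2ac1: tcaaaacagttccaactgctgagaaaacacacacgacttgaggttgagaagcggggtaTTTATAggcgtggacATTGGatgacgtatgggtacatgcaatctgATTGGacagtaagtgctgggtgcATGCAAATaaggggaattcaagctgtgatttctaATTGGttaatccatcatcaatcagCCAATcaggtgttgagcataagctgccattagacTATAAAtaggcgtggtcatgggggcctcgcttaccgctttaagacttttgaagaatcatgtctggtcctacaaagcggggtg
H2ac4: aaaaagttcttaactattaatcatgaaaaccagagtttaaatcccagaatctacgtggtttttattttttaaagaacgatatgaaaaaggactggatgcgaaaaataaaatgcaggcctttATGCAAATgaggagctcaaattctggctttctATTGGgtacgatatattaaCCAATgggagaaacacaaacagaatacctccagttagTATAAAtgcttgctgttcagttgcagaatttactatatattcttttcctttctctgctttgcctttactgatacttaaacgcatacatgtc
H2bc3: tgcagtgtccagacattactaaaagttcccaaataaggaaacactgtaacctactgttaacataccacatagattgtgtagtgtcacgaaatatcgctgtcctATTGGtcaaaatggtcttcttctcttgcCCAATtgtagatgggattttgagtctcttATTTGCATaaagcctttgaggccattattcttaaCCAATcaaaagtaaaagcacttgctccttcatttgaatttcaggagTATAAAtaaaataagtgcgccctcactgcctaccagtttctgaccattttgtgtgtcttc
H1f5: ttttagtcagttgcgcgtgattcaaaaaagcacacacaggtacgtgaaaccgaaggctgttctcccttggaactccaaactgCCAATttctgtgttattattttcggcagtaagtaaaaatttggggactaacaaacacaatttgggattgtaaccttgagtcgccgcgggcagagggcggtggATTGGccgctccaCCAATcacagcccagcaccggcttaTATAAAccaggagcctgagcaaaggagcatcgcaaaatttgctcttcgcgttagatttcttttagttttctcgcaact

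CCAAT stood in 19 of 22 histone windows (86.4%), against 37.4% of all 32851 RefSeq promoter windows. TATAAA stood in 15 of 22 (68.2%), against 13.6% of all windows, and ATTTGCAT in 8 of 22 (36.4%), against 1.74%. The windows printed for H2ac1, H2ac4 and H2bc3 hold all 3 motifs and that of H1f5 holds CCAAT and TATAAA. A match is a run of letters and was not tested as a binding site. The H2ac1 window and that of H2bc1, on the opposite strand, share 220 bases.

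H2ac1, which encodes a histone H2A variant known from the testis and the early embryo (TH2A), fell furthest. Its log2 signal was 10.87, 10.85 and 10.74 with paracetamol, against 12.44, 12.45 and 12.51 with DMSO. The groups lay far apart, with a log2 fold change of -1.65 ± 0.06 (SE, n = 3 each, limma adjusted p = 8.12e-28), or 3.13-fold lower. H2bc1, the H2B partner that shares its promoter region, had 8.84, 8.84 and 8.68 with paracetamol, against 9.63, 9.64 and 9.59 with DMSO. It fell by 0.83 on the log2 scale (SE 0.07, adjusted p = 2.90e-12), again with no overlap of the arrays.

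The core histone genes H2ac4 and H2bc3 followed. H2ac4 had 8.78, 8.62 and 8.86 with paracetamol, against 10.06, 9.94 and 10.02 with DMSO, a log2 fold change of -1.25 ± 0.12 (adjusted p = 5.24e-11). H2bc3 had 10.25, 10.12 and 10.33 with paracetamol, against 11.29, 11.24 and 11.31 with DMSO, a log2 fold change of -1.05 ± 0.09 (adjusted p = 6.34e-12). The arrays of the 2 groups did not overlap for either gene.

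The linker histones, which bind the DNA between nucleosomes, fell as well. H1f5 had 10.93, 10.77 and 10.78 with paracetamol, against 11.78, 11.71 and 11.72 with DMSO (log2 fold change -0.91 ± 0.06, adjusted p = 6.44e-16). H1f1 had 10.73, 10.55 and 10.55 with paracetamol, against 11.43, 11.60 and 11.45 with DMSO (log2 fold change -0.88 ± 0.07, adjusted p = 4.72e-14). In both genes the highest paracetamol array stayed below the lowest DMSO array.

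The H4 genes, which all encode the same protein, fell by 0.22 to 0.57 on the log2 scale. The 5 histone genes without a call were H2bc4, H2bc21, H3c4, H3c7 and H3c15, named here after their values were seen. H3c4 had 8.21, 7.96 and 7.99 with paracetamol, against 8.26, 8.10 and 8.21 with DMSO, overlapping groups with a log2 fold change of -0.14 ± 0.08 (adjusted p = 0.351). Histone genes of 1 family are near-identical in sequence, so signal can be shared between their probe sets, and the value of a single histone gene is less certain than that of its family.

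**Figure D2:**
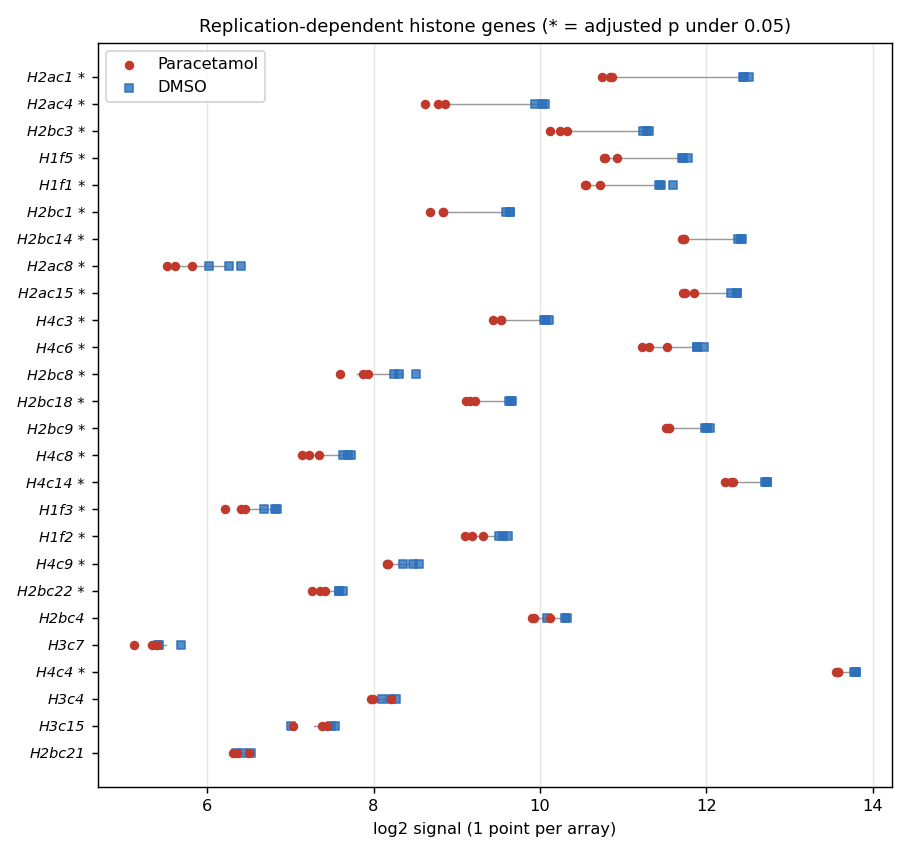
Log2 signal of the 26 replication-dependent histone genes on the 3 paracetamol arrays (red circles) and the 3 DMSO arrays (blue squares); a line joins the group means, and an asterisk marks an adjusted p under 0.05. From H2ac1 down to H2bc22 the paracetamol points lie left of the DMSO points, and the H3 genes, H2bc4 and H2bc21 carry no asterisk.

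Histone genes outside this S-phase group were counted apart. Among 10 genes for histone variants and other histones, a list added after the values were seen, 3 were called lower and 0 higher, with a median of -0.09. They were Cenpa, the histone of centromeres, which is also counted among the mitotic genes (-0.37 ± 0.05, adjusted p = 2.55e-06), H2ax, the variant phosphorylated at DNA breaks (-0.27 ± 0.07, adjusted p = 0.00986), and H2az1 (-0.14 ± 0.04, adjusted p = 0.0326). H2ax lost its call without DMSO replicate 1 (adjusted p = 0.0733), and H2az1 kept its call in 1 of the 6 fits that leave out an array (adjusted p up to 0.126 without paracetamol replicate 2). Of 17 genes that regulate histone mRNA or load histones, also listed after the values were seen, 2 were higher and 1 lower, with a median of 0.00. Both lists stand beside 4.03% of all genes called lower and 4.95% called higher. Those called of the 17 were the chaperone subunits Chaf1b (0.24 ± 0.05, adjusted p = 0.000263), Asf1b (0.23 ± 0.05, adjusted p = 0.00234) and Asf1a (-0.26 ± 0.07, adjusted p = 0.0123, and 0.0864 without paracetamol replicate 2). Asf1a kept its call in 2 of the 6 fits that leave out an array.

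Small nucleolar RNAs, which guide the modification of ribosomal RNA and likewise carry no poly(A) tail, moved in the same direction as the histones. Of 51 measured, 8 were called lower and 0 higher, with a median of -0.24, where 4.03% of all genes were called lower. Whichever array was left out, 1 of the 8 kept its call. Their mean log2 signal per array was 9.08 to 9.18 with paracetamol, against 9.26 to 9.48 with DMSO, so these 2 groups did not overlap. The 54 arrays of the other 18 compounds ran from 8.94 to 9.62, and 6 of them were at or below the highest paracetamol array. With VPA (valproic acid, 1 mM), 38 of the 51 were called lower against the same DMSO arrays, with a median of -0.42, while 3 of the 26 histone genes were lower and 3 higher, with a median of -0.07. The part of the small nucleolar RNAs in the histone result was not tested.

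The p53 target genes rose. Of 24 measured genes, 12 were called higher and 0 lower, with a median log2 fold change of 0.19. Among all genes, 4.95% were called higher and 4.03% lower. In all, 8 of the 12 kept their call whichever array was left out, and 9 were called without DMSO replicate 2. Btg2, an antiproliferative gene that slows the cell cycle, had 10.80, 10.68 and 10.67 with paracetamol, against 10.04, 9.95 and 10.05 with DMSO. Its log2 fold change was 0.70 ± 0.08 (adjusted p = 3.03e-09), or 1.63-fold, with no overlap of the arrays.

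The polo-like kinases Plk2 and Plk3, which act at cell cycle checkpoints, rose too. Plk2 had 10.60, 10.55 and 10.65 with paracetamol, against 10.21, 10.10 and 10.32 with DMSO (log2 fold change 0.39 ± 0.07, adjusted p = 0.000122). Plk3 had 11.02, 10.96 and 11.02 with paracetamol, against 10.66, 10.58 and 10.73 with DMSO (0.35 ± 0.07, adjusted p = 0.000745). Pidd1, whose protein carries a death domain, was higher by 0.33 ± 0.08 (adjusted p = 0.00220). For each of these genes the lowest paracetamol array lay above the highest DMSO array.

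Mdm2, the ubiquitin ligase that restrains p53, was named after its values were seen. It had 11.84, 11.78 and 11.91 with paracetamol, against 11.60, 11.55 and 11.52 with DMSO, without overlap (0.29 ± 0.05, adjusted p = 9.92e-05). The apoptosis genes Bbc3 (Puma), at 0.05 (adjusted p = 0.810), and Pmaip1 (Noxa), at 0.02 (adjusted p = 0.944), also named after their values were seen, were not called. Cdkn1a was not analysed here.

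Genes of mitosis and G2 phase fell. Of 25 measured genes, 17 were called lower and 0 higher, with a median log2 fold change of -0.23. Among all genes, 4.03% were called lower and 4.95% higher. In all, 12 of the 17 kept their call whichever array was left out, and 10 were called when the 6 arrays were fitted alone. Aurka, a spindle pole kinase, had 10.94, 10.91 and 10.86 with paracetamol, against 11.41, 11.36 and 11.50 with DMSO. Plk1, the polo-like kinase that drives mitotic entry, had 12.09, 12.08 and 12.08 with paracetamol, against 12.57, 12.59 and 12.53 with DMSO. Neither gene's arrays overlapped, with log2 fold changes of -0.52 ± 0.05 (adjusted p = 4.48e-10) for Aurka and -0.48 ± 0.06 (adjusted p = 1.78e-08) for Plk1. The 2 polo-like kinase genes of the p53 list rose while Plk1 fell.

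Cenpf, a kinetochore protein, had 9.32, 9.24 and 9.50 with paracetamol, against 9.86, 9.76 and 9.99 with DMSO (-0.52 ± 0.08, adjusted p = 1.49e-05). Tpx2, which activates Aurora A at the spindle, had 10.70, 10.60 and 10.74 with paracetamol, against 11.14, 11.07 and 11.22 with DMSO (-0.46 ± 0.06, adjusted p = 4.12e-08). The arrays of the 2 groups did not overlap in either gene. Not every mitotic gene was called: Aurkb, the kinase of the chromosomal passenger complex, was at 0.05 ± 0.06 (adjusted p = 0.734), a gene named after its value was seen. Top2a has 2 probe sets, of which 1 was called lower.

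The promoter windows of the 2 mitotic kinases Aurka and Plk1 follow, with CCAAT and TTTGAA (the core of the cell cycle homology region, an element known from mitotic promoters) in capitals. They are Aurka at chr2:172370521-172370820 (minus strand) and Plk1 at chr7:122159185-122159484 (plus strand), in RefSeq's GRCm38.p6 table, 5′ to 3′.
Aurka: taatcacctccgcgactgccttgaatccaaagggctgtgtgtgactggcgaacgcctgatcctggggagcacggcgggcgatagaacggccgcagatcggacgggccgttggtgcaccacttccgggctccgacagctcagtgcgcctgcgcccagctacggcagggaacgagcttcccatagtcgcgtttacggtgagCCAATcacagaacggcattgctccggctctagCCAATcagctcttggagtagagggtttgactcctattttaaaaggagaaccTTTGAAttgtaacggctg
Plk1: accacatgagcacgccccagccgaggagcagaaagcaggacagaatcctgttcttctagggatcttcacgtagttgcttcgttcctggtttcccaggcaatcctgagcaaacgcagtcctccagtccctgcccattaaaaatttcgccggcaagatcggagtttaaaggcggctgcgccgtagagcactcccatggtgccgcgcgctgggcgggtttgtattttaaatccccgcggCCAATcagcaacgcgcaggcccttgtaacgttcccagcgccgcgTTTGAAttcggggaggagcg

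TTTGAA, searched on both strands, stood in 16 of 21 mitotic windows (76.2%), against 17.9% of all windows, and in 11 of 22 histone windows (50%). CCAAT stood in 18 of 21 mitotic windows (85.7%), against 37.4% of all. TATAAA and ATTTGCAT stood in 0 of the 21 mitotic windows.

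**Figure D3:**
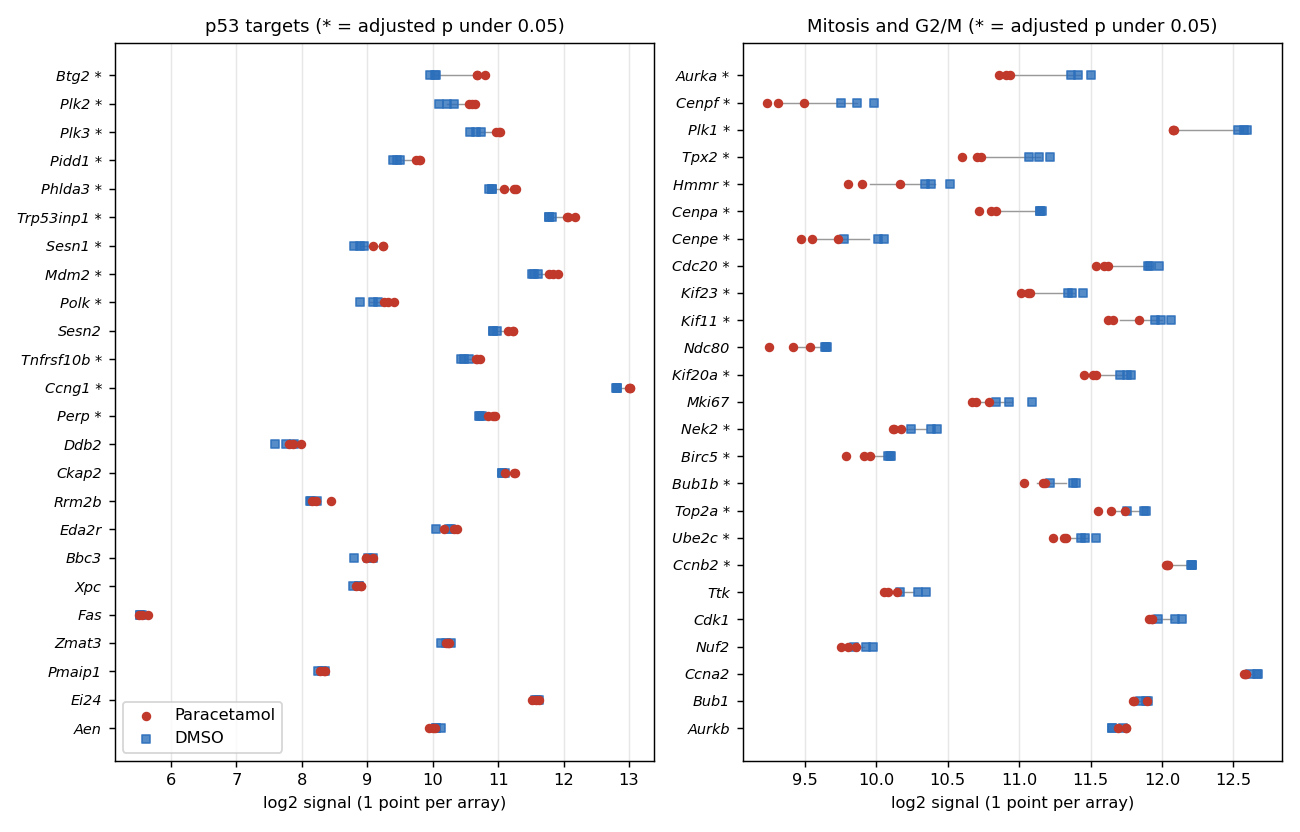
Log2 signal on the 3 paracetamol arrays (red circles) and the 3 DMSO arrays (blue squares) for 24 p53 targets (left) and 25 mitosis and G2/M genes (right); a line joins the group means and an asterisk marks an adjusted p under 0.05. Btg2, at the top left, has a log2 fold change of 0.70, and Aurka, at the top right, has a log2 fold change of -0.52.

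Of 38 measured genes of the G1/S transition and the replication machinery, 4 were called higher and 1 lower, with a median of 0.05, where 4.95% of all genes were called higher and 4.03% lower. Chaf1b, a subunit of the chromatin assembly factor that works at the replication fork, had 11.19, 11.20 and 11.19 with paracetamol, against 10.99, 10.95 and 10.91 with DMSO, with no overlap (0.24 ± 0.05, adjusted p = 0.000263). The other 4, Ccne2 and E2f1 and Cdc45 (higher) and E2f2 (lower), passed with adjusted p between 0.0104 and 0.0447, and each of the 4 lost its call in at least 2 of the 6 fits that leave out an array, with adjusted p up to 0.295 for Ccne2 without DMSO replicate 2. Genes of deoxynucleotide supply showed 2 higher and 0 lower of 16. The ribonucleotide reductase subunit Rrm2 had 12.37, 12.40 and 12.40 with paracetamol, against 12.17, 12.04 and 12.15 with DMSO, without overlap (0.27 ± 0.05, adjusted p = 0.000399). Its partner Rrm1 was at 0.05 ± 0.05 (adjusted p = 0.726) and the p53-inducible subunit Rrm2b at 0.10 ± 0.11 (adjusted p = 0.712). The second call, Dguok, was lost without paracetamol replicate 2 (adjusted p = 0.0112 over all arrays and 0.0717 without it). Dguok was called in 4 of the 6 fits that leave out an array. Of 20 checkpoint and repair genes, listed after the values were seen, Ercc5, an excision repair nuclease, was higher by 0.51 ± 0.06 (adjusted p = 4.93e-09). The mitosis inhibitor Wee1 was lower, at -0.21 ± 0.05 (adjusted p = 0.00269), and so was Cdc25c, an activator of mitotic entry (-0.19 ± 0.06, adjusted p = 0.0469, and 0.268 without DMSO replicate 3). Cdc25c kept its call in 2 of the 6 fits that leave out an array.

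Pluripotency genes fell by small amounts. Of 28 measured genes, 17 were called lower and 0 higher, with a median log2 fold change of -0.24. Among all genes, 4.03% were called lower and 4.95% higher. In all, 15 of the 17 kept their call whichever array was left out. Fbxo15, a target of the pluripotency factors, had 10.45, 10.44 and 10.52 with paracetamol, against 11.17, 10.94 and 11.12 with DMSO, with no overlap (-0.60 ± 0.07, adjusted p = 4.38e-08). Nr5a2, a nuclear receptor that acts on Pou5f1, had 9.92, 9.85 and 9.83 with paracetamol, against 10.41, 10.19 and 10.47 with DMSO, again without overlap (-0.49 ± 0.07, adjusted p = 3.89e-07). Prdm14, which holds back differentiation signals, was lower, at -0.48 ± 0.08 (adjusted p = 1.80e-05), as was the nuclear receptor Nr0b1, at -0.46 ± 0.06 (adjusted p = 2.28e-07).

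Among the core factors, Nanog had 12.42, 12.33 and 12.32 with paracetamol, against 12.65, 12.64 and 12.61 with DMSO (-0.28 ± 0.05, adjusted p = 0.000256). Sox2 had 12.27, 12.20 and 12.24 with paracetamol, against 12.40, 12.44 and 12.40 with DMSO (-0.18 ± 0.04, adjusted p = 0.00535). Pou5f1 had 12.75, 12.77 and 12.76 with paracetamol, against 12.88, 12.87 and 12.88 with DMSO. These arrays did not overlap, yet the gene did not pass the test (-0.11 ± 0.09, adjusted p = 0.576). Its SE comes from the spread within all 20 groups, not from these 6 arrays alone. Probe sets disagreed for Dppa3 and Dppa4, with 1 of 2 called lower, and for Tet1, with 2 of 3 called lower, although the brightest probe set of each was not called. Klf4 (adjusted p = 0.0466) lost its call in each of the 6 fits that leave out an array, and Esrrb without paracetamol replicate 1 (adjusted p = 0.0737).

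Genes of the formative and primed epiblast, the state that embryonic stem cells enter as they leave naive pluripotency, fell as well. Of 13 measured, 8 were called lower and 0 higher, with a median of -0.28, where 4.03% of all genes were called lower and 4.95% higher. Lef1, a transcription factor of the Wnt pathway, had 8.63, 8.55 and 8.57 with paracetamol, against 9.14, 9.25 and 9.19 with DMSO, without overlap (-0.61 ± 0.06, adjusted p = 2.83e-10). Otx2 was lower, at -0.49 ± 0.08 (adjusted p = 1.27e-05), as were Zic2 at -0.45 ± 0.06 (adjusted p = 1.40e-06) and the growth factor Fgf5 at -0.40 ± 0.07 (adjusted p = 0.000145). Sall2 lost its call without DMSO replicate 3 (adjusted p = 0.0877).

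Lineage markers showed no common direction. The counts of this paragraph stand beside 4.03% of all genes called lower and 4.95% called higher. Of 19 mesoderm and endoderm genes 0 were called, with a median of 0.00 (2 genes, Wnt3 and Mixl1, had the largest differences, 0.20 with adjusted p = 0.143 and 0.14 with adjusted p = 0.202). Of 16 neural genes, Neurod1 was higher (0.40 ± 0.08, adjusted p = 0.000280) and Pax6 lower (-0.38 ± 0.08, adjusted p = 0.000481). Among genes of signalling between embryonic cells, 5 of 17 in the BMP and Nodal list were lower and 0 higher, and 2 of the 5 kept their call whichever array was left out. Lefty2, a secreted Nodal antagonist, had 7.63, 7.64 and 7.59 with paracetamol, against 8.27, 8.29 and 8.28 with DMSO, far apart on every array (-0.66 ± 0.09, adjusted p = 2.28e-07). In the Wnt list 3 of 14 were lower, of which 2 kept their call in the same way. They were Lef1, which is also counted in the epiblast list, and Notum, which inactivates Wnt proteins (-0.34 ± 0.07, adjusted p = 0.000544). In the list of targets and inhibitors of ERK signalling, 3 of 16 were lower, and again 2 kept their call, Etv1 (-0.43 ± 0.08, adjusted p = 7.66e-05) and Spry2 (-0.32 ± 0.06, adjusted p = 0.000107).

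Immediate early genes, transcription factors and phosphatases that cells switch on within minutes of a stimulus, had 7 higher and 1 lower of 28, with a median of 0.05. Of all genes, 4.95% were called higher and 4.03% lower. Beside Btg2, which this list shares with the p53 targets, Fosl1 had 9.45, 9.48 and 9.42 with paracetamol, against 9.01, 8.89 and 9.03 with DMSO (0.48 ± 0.07, adjusted p = 5.02e-06). Egr1 was higher by 0.46 ± 0.07 (adjusted p = 6.80e-06) and Atf3 by 0.46 ± 0.08 (adjusted p = 6.65e-05). None of these 3 genes had overlapping arrays.

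The enzymes that handle paracetamol did not pass the test. Of 17 measured genes of its oxidation and conjugation 0 were called, with a median of 0.05, where 8.98% of all genes were called. Their mean log2 signals with paracetamol ran from 4.03 for Cyp3a11, 4.26 for Sult1d1 and 5.04 for Ugt2b1 up to 11.57 for Gstp1. At low signals a change can be missed, so a missing call there says little. Cyp2e1, the cytochrome P450 that oxidises paracetamol, had 5.98, 6.02 and 5.99 with paracetamol, against 6.09, 6.04 and 5.83 with DMSO, overlapping groups at a low signal (0.01 ± 0.08, adjusted p = 0.975). Gstm1, a glutathione transferase, and Cyp2d22 had the largest differences, 0.23 ± 0.08 (adjusted p = 0.0727) and 0.19 ± 0.06 (adjusted p = 0.0502). The sulfotransferase Sult1a1 was at 0.06 ± 0.09 (adjusted p = 0.853) and the glutathione transferase Gstp1 at 0.17 ± 0.09 (adjusted p = 0.294).

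Of 20 genes chosen for the pharmacology of paracetamol, 4 were higher and 0 lower, where 4.95% of all genes were called higher and 4.03% lower. Hmox1, a haem-degrading enzyme induced by oxidative stress, had 11.37, 11.31 and 11.35 with paracetamol, against 10.99, 10.85 and 10.99 with DMSO, with no overlap (0.40 ± 0.06, adjusted p = 1.62e-05). Gclc, the catalytic subunit of the first step of glutathione synthesis, had 11.32, 11.36 and 11.38 with paracetamol, against 11.06, 11.07 and 10.995 with DMSO (0.31 ± 0.09, adjusted p = 0.0153, and 0.0739 without DMSO replicate 3). Srxn1, which restores oxidised peroxiredoxins, was at 0.21 ± 0.06 (adjusted p = 0.0149, and 0.0898 without paracetamol replicate 1), and the fourth was Rrm2. The groups did not overlap for Gclc and Srxn1 either, although both lost the call in 3 of the 6 fits that leave out an array.

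The other genes of this list were not called. Ptgs2, the inducible cyclooxygenase, had 11.92, 11.76 and 11.80 with paracetamol, against 11.85, 11.97 and 11.95 with DMSO (-0.10 ± 0.08, adjusted p = 0.588); Ptgs1 was not analysed here. The stress genes Nqo1 (0.19, adjusted p = 0.128), Gclm (0.07, adjusted p = 0.687), Txnrd1 (-0.01, adjusted p = 0.946) and the cystine carrier Slc7a11 (-0.16, adjusted p = 0.327) did not pass. Neither did the channels and receptors through which paracetamol metabolites are thought to act, Trpv1 (0.00, adjusted p = 0.991), Trpa1 (0.12, adjusted p = 0.559) and Cnr1 (0.04, adjusted p = 0.848), nor the amidase Faah (0.03, adjusted p = 0.918) and the oxidases Cyp1a2 (0.05, adjusted p = 0.896) and Cyp3a11 (0.01, adjusted p = 0.976). Mean log2 signals with paracetamol were low for Cyp3a11 (4.03), Slc7a11 (5.99), Cyp1a2 (6.29), Trpa1 (6.30), Cnr1 (6.63) and Trpv1 (6.97). A change at such signals can be missed.

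The wider stress lists are read against the 8.98% of all genes that were called. Targets of the oxidative stress factor NRF2 had 4 higher and 1 lower of 25, with a median of 0.01, and 1 of these 5, Hmox1, kept its call whichever array was left out. Genes of the glutathione cycle had 2 higher and 0 lower of 15, Gclc and the extracellular peroxidase Gpx3 (0.39 ± 0.08, adjusted p = 0.000356). Genes of prostaglandin and leukotriene metabolism had 1 higher and 0 lower of 20. It was Alox5, the enzyme that starts leukotriene synthesis, with 8.09, 8.15 and 8.07 with paracetamol, against 7.67, 7.67 and 7.73 with DMSO, well apart (0.41 ± 0.07, adjusted p = 1.26e-05). Targets of the aryl hydrocarbon receptor had 0 calls of 8, heat shock genes 1 higher of 16 (Hspa1a, 0.34 ± 0.07, adjusted p = 0.00126), genes of metal balance 1 lower of 17 (the zinc carrier Slc39a10, -0.33 ± 0.06, adjusted p = 0.000109) and genes of NF-κB and inflammation 1 higher of 15 (Traf1, adjusted p = 0.0318, and 0.218 without paracetamol replicate 2). Traf1 kept its call in 2 of the 6 fits that leave out an array.

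The amino acid response list had 2 higher and 3 lower of 29, with Ddit4, an inhibitor of mTOR, higher by 0.60 ± 0.09 (adjusted p = 6.09e-06) while Atf4, the factor that drives the list, was lower, at -0.30 ± 0.06 (adjusted p = 0.000560). Chaperones and degradation genes of the endoplasmic reticulum had 5 higher and 0 lower of 20, led by Derl3 (0.35 ± 0.09, adjusted p = 0.00750) and Sdf2l1 (0.35 ± 0.06, adjusted p = 2.55e-05), whereas 15 of the 20 did not pass; of the 5, only these 2 kept their call whichever array was left out. The hypoxia and glycolysis list was mixed, with 4 higher and 5 lower of 28, of which 5 in all kept their call, among them the histone demethylase Kdm3a (-0.45 ± 0.06, adjusted p = 1.85e-07) and the hexokinase Hk2 (-0.35 ± 0.06, adjusted p = 1.45e-05). Genes of cholesterol synthesis had 3 higher and 0 lower of 20, of which 1, the mevalonate kinase Mvk (0.27 ± 0.06, adjusted p = 0.00176), kept its call whichever array was left out. Lysosome and autophagy genes had 3 higher and 2 lower of 27. Each of the 3 higher calls was lost when some single array was left out, and the 2 lower calls were kept. Those lower were Rragd, a Rag GTPase of mTOR signalling (-0.67 ± 0.07, adjusted p = 3.39e-10), and Tfeb, the main activator of lysosomal genes (-0.37 ± 0.06, adjusted p = 3.04e-05). Subunits of oxidative phosphorylation had 1 call of 80 (Cox6b2, higher by 0.28, adjusted p = 0.0231, and 0.164 without DMSO replicate 2), and ribosomal proteins 1 of 61 (Rpl39l, lower, -0.55 ± 0.11, adjusted p = 0.000232). Cox6b2 kept its call in 2 of the 6 fits that leave out an array, and Rpl39l in all 6.

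**Figure D4:**
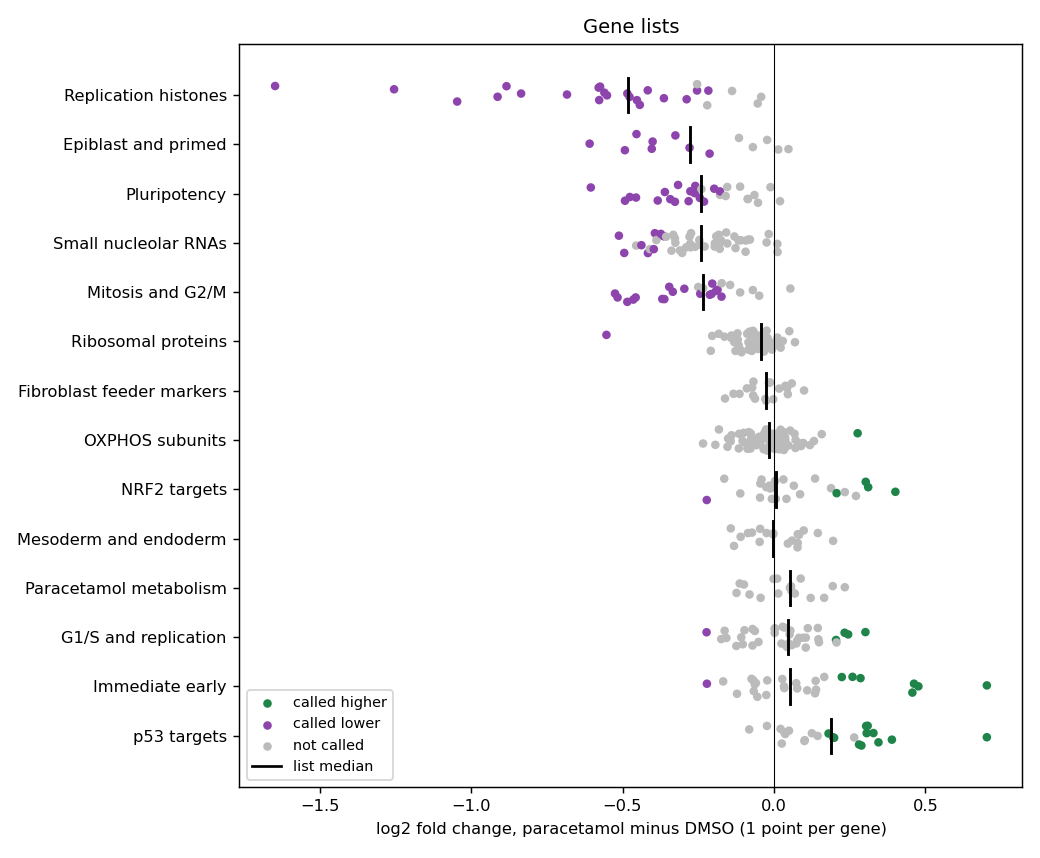
Log2 fold change, paracetamol minus DMSO, on the x axis for every measured gene of 14 gene lists, 1 point per gene; green points were called higher, purple points lower and grey points were not called, and a black bar marks the median of a list. The replication histones, with a median of -0.48, stand at the top, and the p53 targets, with a median of 0.19, at the bottom.

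The largest rises were in Scn3b and Slc4a11. Scn3b, a beta subunit of sodium channels, had 8.86, 8.92 and 8.72 with paracetamol, against 7.91, 8.03 and 7.97 with DMSO (0.86 ± 0.07, adjusted p = 6.34e-12), or 1.82-fold. Slc4a11, an ion transporter of the plasma membrane, had 10.02, 10.16 and 9.91 with paracetamol, against 9.20, 9.15 and 9.24 with DMSO (0.84 ± 0.07, adjusted p = 3.33e-12). In both genes the gap between the groups was wider than the range within either group.

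Elovl2 and Pm20d1, both enzymes, came next. Elovl2, which elongates polyunsaturated fatty acids, had 8.93, 8.75 and 8.88 with paracetamol, against 7.96, 8.07 and 8.12 with DMSO (0.80 ± 0.08, adjusted p = 1.48e-09). Pm20d1, an enzyme that joins fatty acids to amino acids, had 8.76, 8.73 and 8.76 with paracetamol, against 7.89, 7.82 and 8.06 with DMSO (0.82 ± 0.09, adjusted p = 1.71e-09). The groups did not overlap for either enzyme, nor for any of the 14 leading rises, because the choice of leading genes required it.

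Ddit4l, which like Ddit4 restrains mTOR, had 10.08, 9.91 and 10.00 with paracetamol, against 9.21, 9.18 and 9.23 with DMSO (0.79 ± 0.07, adjusted p = 7.48e-11). Both probe sets of Ssh2, a phosphatase that activates cofilin, were higher, by 0.64 ± 0.10 (adjusted p = 8.04e-06) and 0.72 ± 0.18 (adjusted p = 0.00602, and 0.0644 without DMSO replicate 2). Tcf19, a cell cycle gene first known from G1/S, was higher by 0.64 ± 0.08 (adjusted p = 4.38e-08). The rest of the 14 leading rises were the chloride channel family member Ano3 (0.66 ± 0.13, adjusted p = 0.000357), 1700007K13Rik (0.65 ± 0.07, adjusted p = 7.71e-09), Cyyr1 (0.63 ± 0.08, adjusted p = 4.91e-07), Zkscan16 (0.61 ± 0.09, adjusted p = 3.40e-06), Tc2n (0.61 ± 0.14, adjusted p = 0.00264, and 0.0574 without paracetamol replicate 1) and Btg2.

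Of the 10 leading falls, 7 were histone genes. The other 3 were Bnc2, Cyp2b23 and Bcor. Bnc2, a zinc finger protein, had 9.13, 9.00 and 9.02 with paracetamol, against 9.98, 9.96 and 10.01 with DMSO (-0.93 ± 0.07, adjusted p = 4.72e-14). Cyp2b23, a cytochrome P450, had 7.33, 7.52 and 7.29 with paracetamol, against 8.16, 8.13 and 8.23 with DMSO (-0.79 ± 0.09, adjusted p = 1.87e-08). Bcor, a corepressor of the Polycomb system, was lower, at -0.68 ± 0.10 (adjusted p = 2.06e-06). None of the 10, the histone genes included, had overlapping arrays, which the choice of leading genes required.

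Paracetamol was also set against the mean of the other 18 compounds (54 arrays), a comparison that leaves out the DMSO arrays but uses the same paracetamol arrays. Of the 21789 probe sets, 3353 were called (15.4%), 1502 higher (6.89%) and 1851 lower (8.5%). Of the calls against DMSO, 1634 (85.6%) were also called here in the same direction. Among those that were not are Slc39a10 (-0.07 ± 0.04, adjusted p = 0.321), Srxn1 (0.02 ± 0.04, adjusted p = 0.769) and Sall2 (-0.03 ± 0.05, adjusted p = 0.750). Their differences were seen against the 3 DMSO arrays only. Quantile normalisation turned this split to 2111 higher and 1734 lower. Without paracetamol replicate 2 the count against the other compounds was 1819, and without replicate 1 it was 2174.

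The histone genes were lower against the other compounds too. Of 26 genes 21 were called lower and 0 higher, where 15.7% of all genes were called, 8.33% lower and 7.35% higher, and the median was -0.43. H2ac1 differed by -1.71 ± 0.04 (adjusted p = 6.13e-35), H2ac4 by -1.25 ± 0.08 (adjusted p = 5.13e-16) and H2bc3 by -1.02 ± 0.07 (adjusted p = 1.47e-16). The mean log2 signal of the 26 genes was 9.17 to 9.28 on the 3 paracetamol arrays, against 9.58 to 9.85 on the 54 arrays of the other compounds and 9.72 to 9.80 on the DMSO arrays. No array of another compound or of DMSO reached the paracetamol range. With VPA, set against the same DMSO arrays, H2ac1 was higher by 1.16 and H2bc1 by 0.67.

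The mitotic genes were lower than with the other compounds as well. Against the other 18 compounds 23 of 25 were called lower and 0 higher, with a median of -0.26. The shares of all genes in that comparison were 8.33% lower and 7.35% higher. The mean log2 signal of the mitotic genes was 10.90 to 10.97 on the paracetamol arrays, against 11.12 to 11.36 on the arrays of the other compounds and 11.14 to 11.23 on the DMSO arrays. Aurka differed by -0.53 ± 0.04 (adjusted p = 6.77e-15) and Hmmr, a spindle protein named after its values were seen, by -0.55 ± 0.05 (adjusted p = 2.66e-11).

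Against the other compounds, 7.35% of all genes were called higher and 8.33% lower. The p53 targets had 11 of 24 called higher and 0 lower in that comparison, with a median of 0.14. Their mean log2 signal was 10.09 to 10.14 on the paracetamol arrays, against 9.85 to 10.13 on the arrays of the other compounds and 9.88 to 9.96 on the DMSO arrays. An array of another compound, penicillamine replicate 2, lay within the paracetamol range, and the median log2 signal of that whole array was 7.79, against 7.63 to 7.67 on the paracetamol arrays. After subtraction of each array's median over all genes, the p53 mean was 1.97 to 2.03 on the paracetamol arrays, against 1.89 on penicillamine replicate 2 and 1.96 on metoclopramide replicate 3, the highest of all other arrays. Btg2 differed by 0.66 ± 0.06 (adjusted p = 4.64e-13).

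Against the other compounds, 8.33% of all genes were called lower and 7.35% higher. The pluripotency genes overlapped with other compounds in level. Although 21 of 28 were called lower and 0 higher against the other compounds (median -0.21), their mean log2 signal of 11.19 to 11.21 on the paracetamol arrays lay inside the range of the other compounds, 11.06 to 11.56, where 3 arrays were at or below the highest paracetamol array; the DMSO arrays had 11.40 to 11.46. The lowest array was one of VPA, with which 17 of the 28 genes were lower and 1 higher against the same DMSO arrays. The 5 probe sets furthest above the mean of the other compounds were Elovl2 (0.82 ± 0.06, adjusted p = 1.66e-14), Slc4a11 (0.73 ± 0.05), Hes6 (0.71 ± 0.06), 1700007K13Rik (0.69 ± 0.05) and Scn3b (0.69 ± 0.05). Among the other single compounds VPA was highest for Elovl2, Scn3b and Slc4a11. Elovl2 was 0.80 above DMSO with paracetamol and 0.86 above it with VPA, and Scn3b 0.86 with paracetamol and 0.70 with VPA, all against the same DMSO arrays. Of the other leading genes, VPA went further than paracetamol in Tcf19 (1.21 against 0.64), Tc2n, both Ssh2 probe sets, Zkscan16, Cyp2b23 (-1.19 against -0.79) and Bcor (-0.83 against -0.68). With VPA, Ano3 (-0.39), Cyyr1 (-0.33) and 1700007K13Rik (-0.285) went the other way, as did H2ac1 and H2bc1. Hes6, a transcription factor that counters Hes1, was also higher than with DMSO (0.54 ± 0.08, adjusted p = 7.65e-06).

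**Figure D5:**
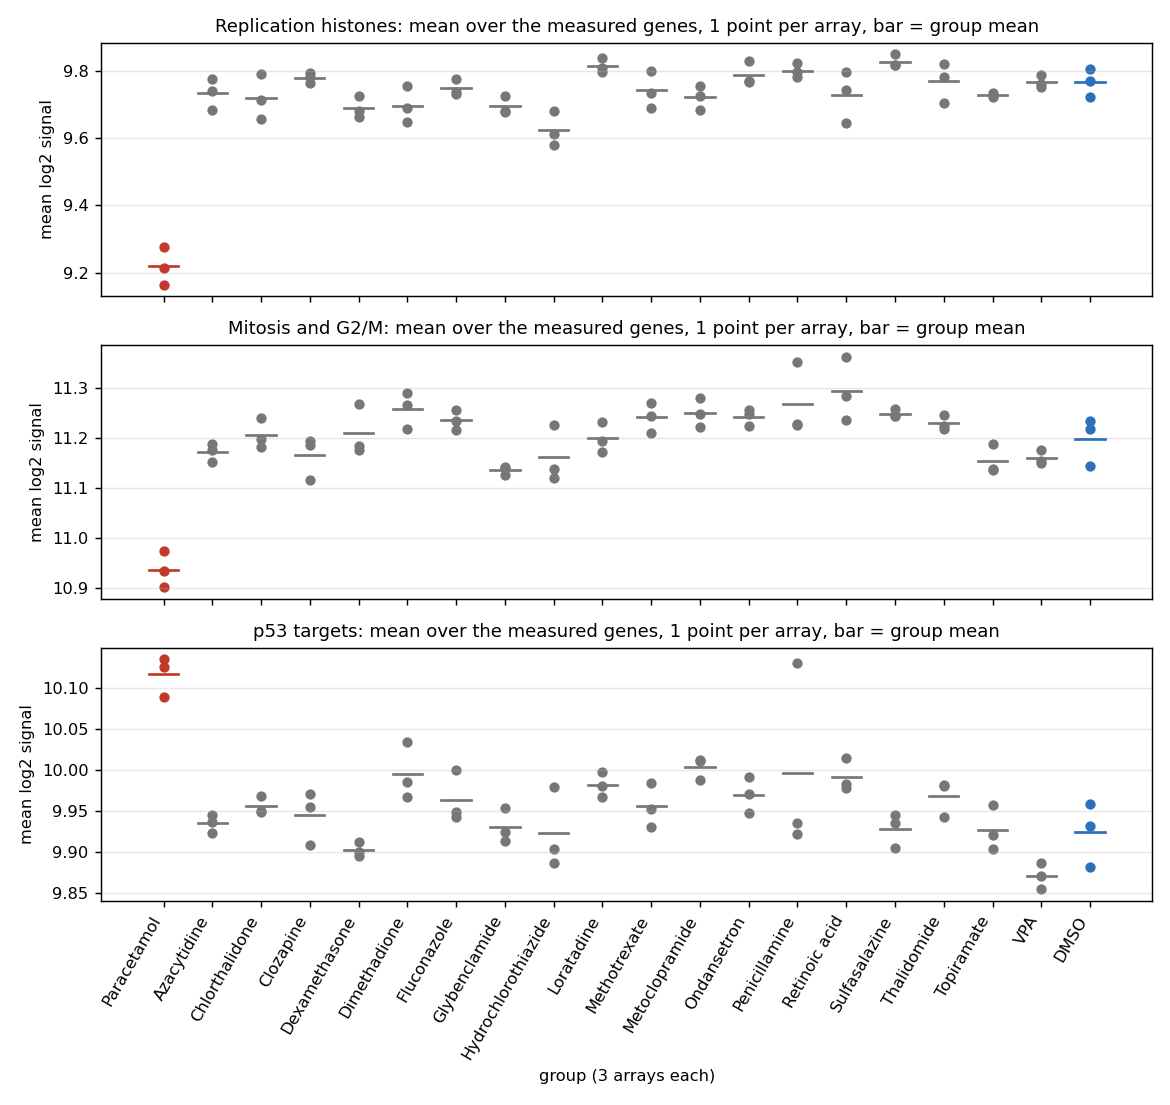
Mean log2 signal over the measured genes of 3 lists on each of the 60 arrays, by group (paracetamol in red at the left, the other 18 compounds in grey, DMSO in blue at the right); each point is an array and each bar the mean of 3 arrays. The paracetamol points of the replication histones (9.17 to 9.28) and of the mitosis genes (10.90 to 10.97) lie below every other point, and for the p53 targets 1 penicillamine array, whose median over the whole array is raised (7.79), reaches the paracetamol points; with each array's median subtracted it does not (1.89 against 1.97 to 2.03 for paracetamol).

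At a matched molar dose, paracetamol was compared with the mean of the other 8 compounds given at 1 mM (penicillamine, chlorthalidone, hydrochlorothiazide, dimethadione, fluconazole, topiramate, sulfasalazine and VPA; 24 arrays). Of the probe sets 2507 were called (11.5%), 1123 higher (5.15%) and 1384 lower (6.35%), and after quantile normalisation 1626 were higher and 1390 lower. The histone genes had 21 of 26 lower and 0 higher, where 11.9% of all genes were called, 6.33% lower and 5.52% higher, with H2ac1 at -1.81 ± 0.04 (adjusted p = 2.24e-35). The mitotic genes had 21 of 25 lower, the p53 targets 11 of 24 higher and the pluripotency genes 19 of 28 lower, with none called in the opposite direction. Aurka differed by -0.53 ± 0.04 (adjusted p = 1.38e-14), Btg2 by 0.61 ± 0.06 (adjusted p = 1.88e-11) and Fbxo15 by -0.60 ± 0.05 (adjusted p = 1.21e-11), while Pou5f1 was at 0.00 (adjusted p = 0.998). Without paracetamol replicate 2 the count was 1384 and without replicate 1 it was 1576. The rank of paracetamol by number of calls against DMSO was 6, after VPA (5778), loratadine (4184), retinoic acid (2140), glybenclamide (2079) and sulfasalazine (1940), all read against the same 3 DMSO arrays.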

How the data were processed

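The table holds 1 value per array for each probe set. The authors deposited log2 values made by RMA (robust multi-array averaging), per the submitters' processing notes, and the sources used here give neither the version nor the options of RMA, nor a genome build. RMA in general corrects background, normalises arrays to each other and summarises the probes of a set, and it tends to understate fold changes of dim probe sets. Of 35556 probe sets, 21789 with 1 gene symbol in the platform annotation (19938 symbols) were tested; 1621 with several symbols and 12146 with no entry were not named. No value was missing, and arrays have no read depth, so the 3 arrays per group limit the precision.

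The deposited values were fitted without further normalisation in limma 3.58.1 (R 4.3.3; lmFit and eBayes, default settings) with a mean for each of the 20 groups, 40 residual and 7.31 prior degrees of freedom. Contrasts were adjusted by Benjamini-Hochberg over all 21789 probe sets and called at an adjusted p under 0.05, two-sided. Log2 fold changes are given with the SE of that model and 3 arrays per group. Gene lists (31, and 3 added after the values were seen) were read from the same fit, each gene by the probe set brightest over the 60 arrays, and described by counts and medians with no set test. The code was tested on simulated data.

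Named genes are, among probe sets called without overlap of arrays, the 14 largest rises and 10 largest falls, the pharmacology list whatever its result, per list the 4 called members with the largest change (the 2 largest where none was called), and the 5 largest differences in each direction against the other compounds. The groups, lists and this rule were chosen with earlier results of these data known. Alternatives were quantile normalisation, a filter on dim probe sets, all probe sets, the 6 arrays alone, eBayes with trend and robust settings, the interquartile range of an array or the letter b in some titles as a covariate, and leaving out each array in turn. Promoter windows are RefSeq's, GRCm38.p6, matched by symbol.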

Additional observations from a re-analysis of the deposited data

Results flagged for a closer look

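Probe sets with several gene symbols or none, which no comparison above uses, also carried a signal. In the fit of all 35556 probe sets, 69 of these 13767 were called higher with paracetamol than with DMSO and 191 lower (1.89% called), with log2 fold changes between -1.50 and 0.78. They are not named here. Groups of 3 arrays are too small for the test used to mark a single deviating array.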

How the results depend on the processing

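The count of probe sets called against DMSO was 1909, and between 1306 and 2422 under the alternatives that keep all 6 arrays. Fitting the 6 arrays alone gave 597 lower calls and 10 lower mitotic genes, with fewer residual degrees of freedom. Leaving out an array gave 1166 to 1554 calls, 621 to 815 higher and 545 to 859 lower; the fewest calls came without paracetamol replicate 2. The same step gave 1819 to 2313 calls against the other 18 compounds (783 to 1023 higher, 1036 to 1294 lower) and 1384 to 1759 against the 8 at 1 mM (610 to 785 higher, 760 to 974 lower). Why these counts moved was not tested. Quantile normalisation moved the share of higher calls to 54.9% of 3845 against the other 18 compounds, where it was 44.8%, and to 53.9% of 3016 against the 8 at 1 mM, where it was 44.8%. Over all alternatives the histone list had 17 to 22 lower calls (17 where dim probe sets were left out and 19 of the 26 genes remained), the p53 list 9 to 13 higher, the mitotic list 10 to 19 lower and the pluripotency list 15 to 18 lower. No named gene that was called changed sign. For genes whose groups did not overlap, leaving out an array cannot reverse the sign, so that step did not test it. Of 100 called probe sets named by the rule, 70 kept their call whichever array was left out. No paired analysis was possible because the labels give no replicate numbers and the numbers used here follow deposit order.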
